A study of Mus musculus with 28 samples.

Results

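The CHD genes encode chromatin remodellers, ATPases that slide, space or evict nucleosomes and that carry paired chromodomains in front of a SNF2-type motor. The 8 genes described here, Chd1, Chd2, Chd3, Chd4, Chd6, Chd7, Chd8 and Chd9, were taken by symbol and joined by gene ID across the expression, chromatin RNA and peak data. Chd5 belongs to the family and was measured too, but it was not among the 8 and is described further on. All 8 were among the 15384 genes with a value in every library, and none was lost to a filter on low values. No measured value entered the rule that took the 8, but earlier results of these data were known when they were chosen. The study depleted SSRP1, the smaller subunit of the histone chaperone FACT, from E14 cells, a feeder-free mouse embryonic stem cell (mESC) line grown in serum with leukaemia inhibitory factor. RNA-seq with ERCC spike-ins covered 4 control libraries, from cells given a scramble shRNA vector, and 4 Ssrp1 knockdown (KD) libraries, from cells given 2 Ssrp1 shRNAs in combination. Both groups were transfected, placed after 48 h under puromycin at 2 µg/ml for 24 h and then collected, so selection and vector were shared. Peaks of SSRP1 and of its partner SUPT16, each called once from 2 ChIP-seq replicates, and 2 libraries of chromatin-associated RNA came from unperturbed E14 cells.

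The family falls into 3 subfamilies. CHD1 and CHD2 bind DNA directly and are tied to transcribed genes, where the chromodomains of CHD1 read methylated lysine 4 of histone H3. CHD1 is known in mESCs for keeping chromatin open and for supporting self-renewal, and it has long been linked to FACT in transcription elongation. CHD3 and CHD4 carry PHD fingers and serve as alternative motors of the NuRD deacetylase complex, which tunes the expression of pluripotency and lineage genes. CHD6, CHD7, CHD8 and CHD9 form the third subfamily, in which CHD7 acts at enhancers and is mutated in CHARGE syndrome, and CHD8 binds β-catenin and CTCF and is a recurrent autism gene.

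Sequencing was deeper in KD (9433193 to 19856032 reads on genes) than in control (4602278 to 6680919 reads). Genes were called when limma put them beyond 1 on the log2 scale in either direction at an adjusted p under 0.01. The targeted gene fell in every KD library. Ssrp1 had library-size values of 261, 230, 223 and 226 in control and of 24.1, 26.4, 24.9 and 28.9 in KD, a log2 fold change of -3.15 (SE 0.069). Supt16 mRNA was higher in KD, at 504 ± 20.2 against 319 ± 22 (SD, n = 4), with a log2 fold change of 0.66, although it was 0.03 (adjusted p = 0.455, limma) under quantile normalisation, 0.23 with plain CPM and 1.69 with spike-ins. For the protein the study reports the opposite, a loss of SUPT16 together with SSRP1 by mass spectrometry, and protein was not examined here. A library-size value is a gene's read count divided by a scaling factor of its library, and it was divided by exon length only where different genes are compared. Marker lists for cell make-up are given on the library-size scale, beside the 20.6% of all genes called lower and the 8.07% called higher. All 11 pluripotency markers were measured, 6 were called higher, their summed value went from 1975 to 2071 in control to 5092 to 5515 in KD, and Pou5f1 and Sox2 were present in every library. With quantile values Tdgf1 (log2 fold change 1.82) stayed beyond the fold threshold, while Dppa5a (0.94), Sox2 (0.75), Pou5f1 (0.58), Nanog (0.57) and Zfp42 (0.57) did not. With plain CPM Tdgf1 (1.97) and Dppa5a (1.41) did, while Sox2 (0.85), Pou5f1 (0.80), Zfp42 (0.75) and Nanog (0.62) did not. Fibroblast and mesenchyme markers were low and went the other way, with 6 of 8 measured, 5 of them called lower, and a sum of 87.1 to 105.7 in control against 17.4 to 20.8 in KD. Postn was under the fold threshold with spike-ins (-0.93) and with quantile values (-0.69), while the others called stayed beyond it in both. Dcn and Lum had no value in the table. Of the primitive endoderm markers 3 of 6 measured were called lower, with a sum of 303.9 to 338.5 in control and 282.9 to 317 in KD. With spike-ins these 3, Gata6 (-0.90), Gata4 (-0.57) and Sox17 (-0.26), were under the fold threshold. Of the epithelial and trophectoderm markers 4 of 8 were called lower, with a sum of 1047 to 1401 and 770.6 to 817.2. With spike-ins and with quantile values Cdx2 (-0.80 and -0.52) and Gata3 (-0.22 and -0.33) were under the fold threshold. Krt14 (-2.79 and -3.00) and Krt15 (-3.48 and -3.79) were not. Of the neural markers 2 of 5 were called lower and 1 higher, with a sum of 83.7 to 107.4 and 144.5 to 155.5. The larger sum in KD came from Tubb3 alone (33.6 ± 5.27 to 108 ± 4.56). Pax6 (-1.46), Map2 (-1.22), Sox1 (-0.96) and Nes (-0.36) had negative log2 fold changes, and the list median was -0.96. With spike-ins Pax6 (-0.54) and Map2 (-0.28) were under the fold threshold. The part of any such change in cell make-up in the CHD values was not tested, and in bulk RNA fewer cells of a type and less RNA per cell cannot be told apart.

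Per kb of exon the 8 genes spanned more than an order of magnitude in control mESCs, and Chd4 stood apart at the top. Its level was 66.4 ± 5.10 values per kb (SD, n = 4), above 94.3% of all measured genes. Chd1 came next at 21.0 ± 1.11 and Chd8 followed at 17.5 ± 1.44. The ranges of Chd4, Chd1 and Chd8 over the 4 control libraries did not overlap with one another. Chd2 (12.6 ± 1.75), Chd9 (11.2 ± 0.426) and Chd6 (11.1 ± 0.778) formed a middle group whose neighbouring ranges overlapped, so their order within it was not resolved. Chd3 (6.47 ± 1.07) and Chd7 (4.80 ± 0.536) were lowest, with overlapping ranges, although Chd3 was the higher of the pair in 4 of 4 libraries. Even Chd7 lay above 33.7% of measured genes. In KD the same 3 genes led, Chd9 (9.94 ± 0.244) passed Chd2 (8.99 ± 0.371) without overlap, and Chd3 (3.6 ± 0.203) and Chd7 (3.42 ± 0.219) drew level within their ranges.

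**Figure D1:**
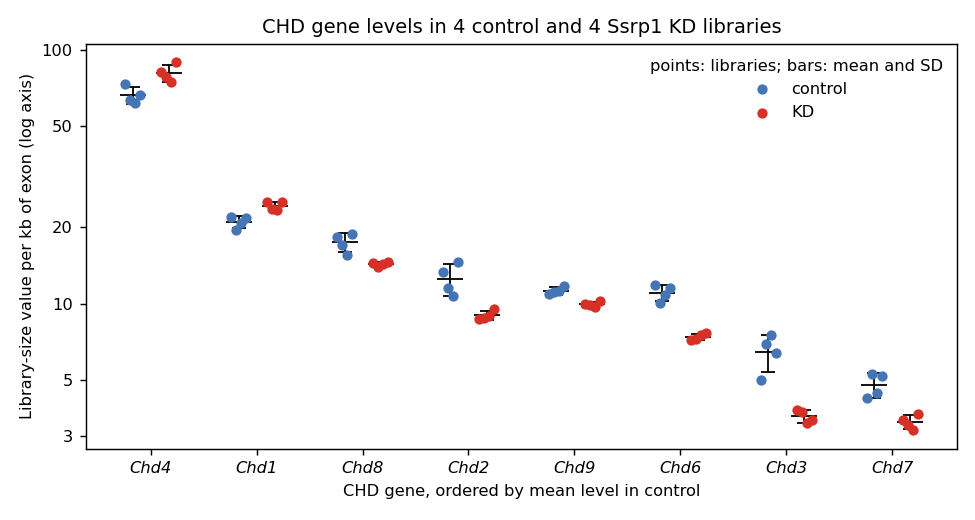
Library-size value per kb of exon on a log axis for the 8 CHD genes, ordered by mean level in control; points are libraries (4 control, 4 KD) and bars give the mean and SD. Chd4 lies highest in both groups, at 66.4 in control and 81.1 in KD, and Chd4 and Chd1 are higher in KD while the other 6 genes are lower.

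The comparison of KD with control asks how the transcripts of these remodellers stand once FACT is depleted. With these thresholds 0 of the 8 genes were called, where 28.6% of all genes were (20.6% lower and 8.07% higher). Chd5, not among the 8, was called lower, as described further on. The changes of the 8 genes were small but separated the groups in each case. All 8 genes had an adjusted p below 0.01 in limma, and 72.8% of all genes did; 2 were higher in KD (35.4% of all genes) and 6 were lower (37.3% of all genes). In all 8 the library values of the groups did not overlap, which held for 73.3% of all genes. The edgeR and DESeq2 models on recovered reads also called 0 of 8. The median log2 fold change of the 8 genes was -0.38 beside -0.03 over all genes.

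Chd1, the remodeller that reads methylated lysine 4 of histone H3, was modestly higher after SSRP1 depletion. Its library-size values were 173, 154, 164 and 172 in control and 200, 188, 185 and 199 in KD. Every KD library lay above every control library, and the log2 fold change was 0.22 (SE 0.056, adjusted p = 0.00106, limma). Chd2, its closest relative and a gene of neurodevelopmental epilepsy, went the other way. Its values were 122, 104, 97.4 and 132 in control and 79.0, 79.4, 81.5 and 86.3 in KD. The control libraries were spread over a wider range than the KD libraries but stayed above them, with a log2 fold change of -0.47 (SE 0.075, adjusted p = 2.24e-06, limma). The ratio of the pair within a library is untouched by any scaling that divides each library by 1 factor. The log2 ratio of Chd1 to Chd2 was 0.50, 0.56, 0.75 and 0.38 in control and 1.33, 1.24, 1.18 and 1.20 in KD, so no control library reached the lowest KD library. The mean ratio shifted by 0.69 on the log2 scale (two-sided exact permutation p = 0.0286, which is as low as 4 against 4 libraries can reach, adjusted over 2 ratios 0.0286). It was 0.55 with quantile values and 0.61 with the length curve described further on, with the same p in each.

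FACT peaks at this pair were unequal. Chd1 (chr17:15704967-15772612, mm10) had no SSRP1 peak and a single SUPT16 peak of 210 bp, which lay in the first exon, 94 bp past the start. Chd2 (chr7:73426652-73541746, minus strand) was assigned 6 SSRP1 peaks and 2 SUPT16 peaks. Both SUPT16 peaks overlapped SSRP1 peaks, by 182 bp in an intron and by 392 bp upstream. Over all peaks 47.0% of SUPT16 peaks and 16.2% of SSRP1 peaks overlapped the other list. One SSRP1 peak ended 591 bp before the Chd2 start, 3 lay in introns, 1 lay beyond the 3′ end and 1 lay 16173 bp upstream of the start. The upstream pair of SSRP1 and SUPT16 peaks sat 85 bp and 15 bp inside the start of 1810026B05Rik, the noncoding gene that RefSeq names Chaserr, which runs along the same strand into the Chd2 start and is known to restrain Chd2. This neighbour was looked up after its peaks had been seen. Its library-size values were 22.3, 17, 23.5 and 28.3 in control and 19.4, 16.8, 20.7 and 18 in KD. The groups overlapped, and the log2 fold change of -0.26 (SE 0.12) had an adjusted p of 0.0494 in limma, short of the 0.01 threshold, and it was 0.74 with spike-ins and 0.24 with the length curve. Its exons share 634 of the 9071 exon bases counted for Chd2, and reads there cannot be told apart by position.

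The stretches where the peaks of both subunits overlap at Chd2 are shown because they differ sharply in base composition. The intronic one is chr7:73535491-73535672 and the one at the noncoding start is the central part, chr7:73557965-73558264, both in the GRCm38.p6 reference and on the minus strand, in the direction of Chd2. Capitals mark CpG dinucleotides.

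Chd2 intronic: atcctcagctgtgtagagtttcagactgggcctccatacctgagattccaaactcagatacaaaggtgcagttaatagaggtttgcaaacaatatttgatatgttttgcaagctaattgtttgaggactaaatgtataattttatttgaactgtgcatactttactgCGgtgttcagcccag
Chd2 distal: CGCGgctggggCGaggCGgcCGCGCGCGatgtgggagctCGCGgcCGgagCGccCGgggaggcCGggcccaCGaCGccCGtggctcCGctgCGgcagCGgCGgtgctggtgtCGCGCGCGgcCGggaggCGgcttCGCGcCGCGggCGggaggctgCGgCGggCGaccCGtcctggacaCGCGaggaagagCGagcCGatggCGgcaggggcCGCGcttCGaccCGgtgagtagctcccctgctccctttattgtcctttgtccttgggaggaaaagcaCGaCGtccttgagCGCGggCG

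The intronic stretch holds 1 CpG in 182 bases and is 38.5% G and C, whereas the stretch at the noncoding start holds 50 in 300 bases and is 76.3% G and C. For the full SSRP1 peaks the CpG content was 0.255 and 14.8 per 100 bases, at the 2.73 and 98.2 percentiles of all 10114 SSRP1 peaks, whose median was 2.81. The SSRP1 and SUPT16 peaks shared at Chd2 thus came from both ends of that distribution.

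Chd4, the main NuRD motor of mESCs, was higher in KD, and Chd3, its alternative, was lower. On the library-size scale the fall of Chd3 was the largest among the 8 genes, while Chd5, outside the 8, fell further (log2 fold change -1.34). Chd4 had library-size values of 472, 410, 398 and 429 in control and 528, 505, 480 and 575 in KD. The highest control library stayed just below the lowest KD library, and the log2 fold change was 0.29 (SE 0.064, adjusted p = 1.83e-04, limma). Chd3 had values of 30.9, 42.9, 46.3 and 39.5 in control and 23.5, 23.0, 20.9 and 21.5 in KD. Control replicate 1 was the lowest of its group but still above every KD library, and the log2 fold change was -0.82 (SE 0.10, adjusted p = 3.34e-08, limma). Of the 8 genes Chd3 came nearest to the fold threshold. It rests on 190 to 393 reads per library, against 2216 to 9926 for Chd4. The log2 ratio of Chd3 to Chd4 was -3.91, -3.24, -3.09 and -3.42 in control and -4.46, -4.43, -4.49 and -4.71 in KD. The 2 sets did not overlap, and on the linear scale the ratio of library-size values ran from 0.0654 to 0.116 in control and from 0.0373 to 0.0456 in KD. The mean shift was -1.11 on the log2 scale (two-sided exact permutation p = 0.0286, adjusted over 2 ratios 0.0286). With quantile values, which are not a single factor per library, the shift was -0.51 and no longer passed (exact permutation p = 0.114). Without control replicate 1, which was nearest to KD, the shift was -1.27. The exon lengths of the pair are similar, at 6168 bp for Chd3 and 6438 bp for Chd4.

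**Figure D2:**
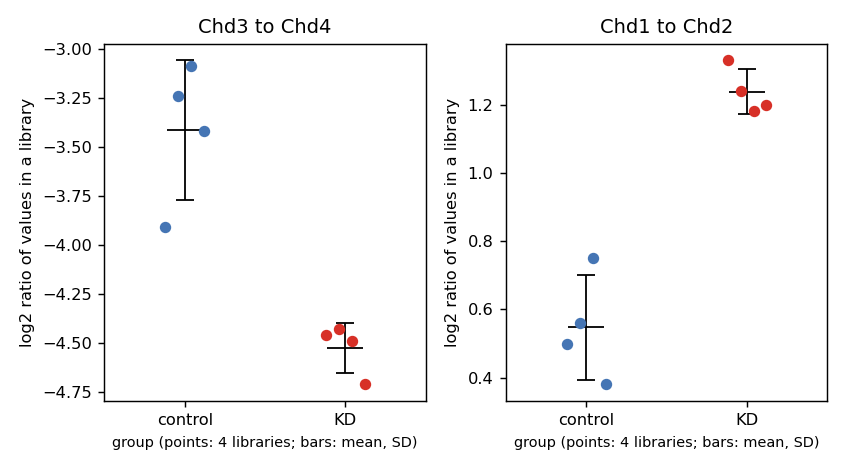
Log2 ratio of library-size values within each library for Chd3 to Chd4 and for Chd1 to Chd2; points are the 4 libraries of a group and bars give the mean and SD. The Chd3 to Chd4 ratio is lower in KD by 1.11 and the Chd1 to Chd2 ratio is higher by 0.69, with no overlap between groups in either panel.

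Chd4 (chr6:125095980-125130591) had a single SSRP1 peak of 980 bp, chr6:125095433-125096412, which covered all annotated starts of the gene, and no SUPT16 peak. Chd3 (chr11:69343273-69369499, minus strand) had no SSRP1 peak and a single SUPT16 peak of 210 bp in an intron, chr11:69368741-69368950, 476 bp past the nearest start. The Chd4 sequence under the peak and before the first RefSeq start (chr6:125095730-125095979, plus strand) and the Chd3 peak itself (minus strand) are given next, with CpG dinucleotides in capitals, since they are the positions at which FACT was detected near the starts of this pair.

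Chd4 upstream: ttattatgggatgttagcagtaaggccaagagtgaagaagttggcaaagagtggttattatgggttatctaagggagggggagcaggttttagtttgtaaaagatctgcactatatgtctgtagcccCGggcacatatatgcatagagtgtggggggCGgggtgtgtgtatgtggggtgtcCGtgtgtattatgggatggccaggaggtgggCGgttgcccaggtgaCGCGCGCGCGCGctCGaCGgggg
Chd3 intronic: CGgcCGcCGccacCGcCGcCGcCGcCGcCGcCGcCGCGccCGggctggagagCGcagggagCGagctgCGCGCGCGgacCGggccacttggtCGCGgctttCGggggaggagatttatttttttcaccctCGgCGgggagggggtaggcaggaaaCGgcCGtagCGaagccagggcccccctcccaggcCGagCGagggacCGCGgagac

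The Chd4 stretch holds 12 CpG in 250 bases, next to a median of 11 in the same window of 14957 measured genes, and they crowd at its 3′ end, beside the start. It contains the GC box letters GGGCGG 2 times, a motif found on either strand in 46.6% of those windows. The Chd3 peak holds 32 CpG in 210 bases, or 15.2 per 100 bases, at the 95.3 percentile of all 3855 SUPT16 peaks. It contains none of the 4 motifs searched on both strands (GGGCGG and, described with the windows of the other genes, CCAAT, ATGCAAAT and AAGGTCA).

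The 4 genes of the CHD6 to CHD9 subfamily were all lower in KD on the library-size scale, by different amounts. Chd6, the largest change among them, had values of 125, 107, 114 and 122 in control and 76.1, 76.5, 79.5 and 80.6 in KD. The KD libraries were tightly grouped well below control, with a log2 fold change of -0.57 (SE 0.062, adjusted p = 2.71e-09, limma). Chd7, the CHARGE syndrome gene, had values of 39.6, 49.6, 41.4 and 48.6 in control and 32.4, 31.2, 29.6 and 34.4 in KD. Its groups were separate but close, and the log2 fold change was -0.48 (SE 0.084, adjusted p = 1.03e-05, limma). Chd8, the β-catenin and CTCF partner, had values of 150, 140, 128 and 155 in control and 118, 115, 117 and 119 in KD. Control replicate 3 was nearest to KD, and the log2 fold change was -0.28 (SE 0.061, adjusted p = 1.36e-04, limma). Chd9, which is linked to mesenchymal and bone-forming cells, had values of 125, 127, 129 and 136 in control and 115, 113, 112 and 118 in KD. This was the smallest difference of the family on this scale, with a log2 fold change of -0.18 (SE 0.056, adjusted p = 0.00552, limma), and leaving out control replicate 4 or KD replicate 1, 2 or 3 gave an adjusted p between 0.0151 and 0.0255.

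The direction of most of these changes rested on how libraries were put on one scale, whereas the order of the genes did so much less. With the deposited spike-in scaling the median gene was higher in KD by 0.95 on the log2 scale and all 8 CHD genes had positive log2 fold changes, from 0.19 for Chd3 to 1.31 for Chd4. Chd1 (1.24) and Chd4 were then called higher, as 48.1% of all genes were, and with Chd9 they were the 3 genes that had an adjusted p below 0.01 in limma, as 56.0% of all genes did in that direction. In KD replicate 1 the spike-in values were 0.921 of the library-size values, against 0.598 to 0.895 in control and 1.5 to 1.85 in the other KD libraries. Without KD replicate 1 Chd9 (1.05) was called higher as well, as 55.9% of all genes were. Under plain CPM of the recovered reads (counts scaled to library total alone) the median gene was lower by 0.45, all 8 genes were negative, and Chd3 (-1.24) and Chd6 (-1.0) were called lower, as 30.5% of all genes were. Quantile normalisation, which forces the same distribution on every library, also gave 8 negative values, from -0.95 for Chd6 to -0.28 for Chd1. Taken relative to the median of all genes, Chd1 was at 0.25 and Chd4 at 0.32 on the library-size scale and at 0.29 and 0.36 with spike-ins, and Chd3 was at -0.78 and -0.76. Chd4 and Chd1 stood above the median gene and the other 6 below it with library-size, plain CPM and spike-in values, whereas under quantile normalisation all 8 were below.

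**Figure D3:**
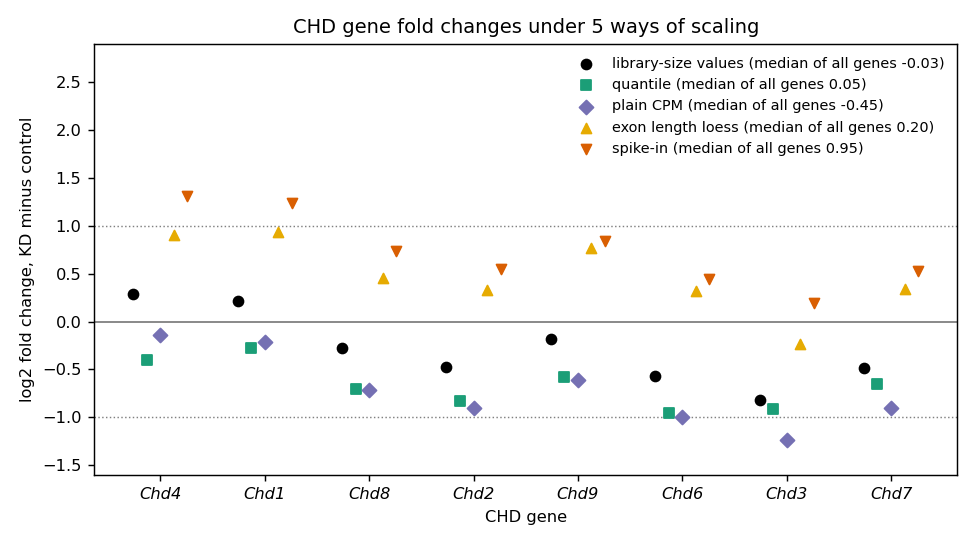
Log2 fold change of each CHD gene, KD minus control, under 5 ways of scaling; dotted lines mark an absolute log2 fold change of 1, and the legend gives the median of all genes under each. Chd4 and Chd1 lie above the other CHD genes under each scaling, and Chd3 is lowest under each except quantile, where Chd6 is.

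All 8 transcripts are long, with 6168 to 11517 bases of exon, and in these libraries the fold change moved with exon length over all genes. Genes with at most 1000 bases had a median log2 fold change of 0.53, and the median fell in each longer class to -0.48 in the 1456 genes of at least 6168 bases. In that longest class 72.0% of genes were negative, 32.1% were called lower and 1.10% were called higher. Against it Chd4 was at the 85.0 percentile, Chd1 at 81.2, Chd9 at 63.9 and Chd8 at 58.8. Chd2 (50.3), Chd7 (50.1) and Chd6 (45.9) lay in the middle of the class and Chd3 (37.0) somewhat below it. When a loess curve of fold change on exon length was taken off, the median was 0.20 over all genes and 0.26 in the longest class. Of all genes 57.9% were then positive. So were 7 of 8 CHD genes, with an adjusted p below 0.01 in limma in each (45.6% of all genes). Chd2 (0.33), Chd6 (0.32) and Chd7 (0.34) were near the class median. The curve was fitted to these same fold changes, and its own error does not enter the p-values. Chd1 was then at 0.94, Chd4 at 0.90 and Chd9 at 0.77, while Chd3 alone was negative, at -0.23 with an adjusted p of 0.0366 (limma). What gave rise to the trend with length was not tested, and it cannot be told apart from the difference between groups.

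**Figure D4:**
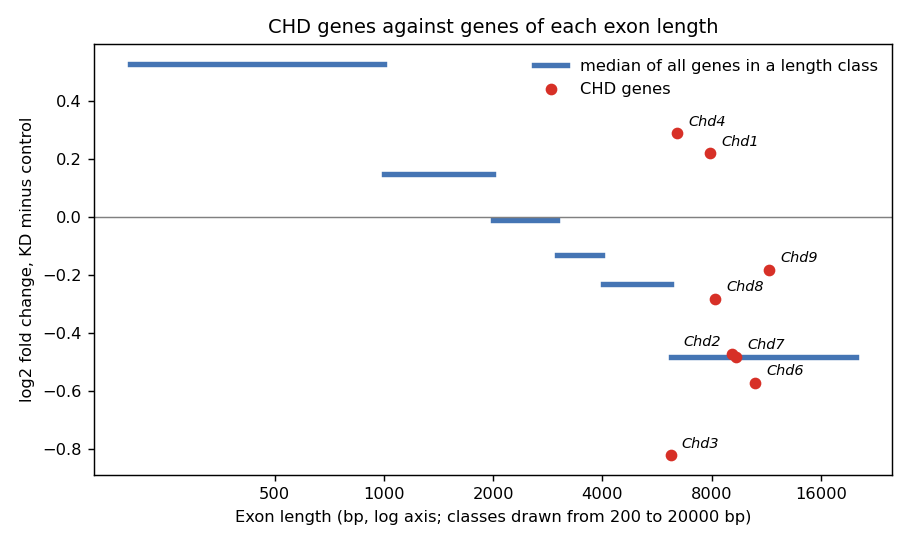
Log2 fold change on the library-size scale, KD minus control, against exon length on a log axis; bars are the medians of all genes in 6 length classes and points are the 8 CHD genes. The class medians fall from 0.53 to -0.48, and Chd1 and Chd4 lie well above the bar of their class while Chd3 lies below it.

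On the library-size scale the summed level of the 8 genes was alike in both groups, and Chd4 made up more of it in KD. The sum of values per kb was 151 ± 8.13 in control and 153 ± 8.10 in KD (SD, n = 4), with overlapping ranges of 143 to 159 and 145 to 164. The direction of the sum followed the scaling. It was higher in KD with spike-ins (86.9 to 140 in control, 142 to 276 in KD) and with the length curve taken off (236 to 266 in KD), and lower with plain CPM (173 to 179, 123 to 144) and with quantile values (185 to 191, 123 to 142). Chd4 supplied 43.9% ± 1.58 of that sum in control and 52.9% ± 1.32 in KD. Chd1 went from 13.9% ± 0.470 to 15.9% ± 0.414. The shares of the other 6 were smaller in KD, among them Chd8 from 11.6% ± 0.461 to 9.37% ± 0.380, Chd6 from 7.33% ± 0.252 to 4.85% ± 0.250 and Chd3 from 4.32% ± 0.915 to 2.36% ± 0.170. No share overlapped between groups, but shares within a sum are tied, so that a larger Chd4 lowers the rest, and they follow the same values as the fold changes above.

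Across the family the peak data divided the genes unevenly. SSRP1 peaks were assigned to 4 of 8 genes (Chd2, Chd4, Chd6 and Chd9) and SUPT16 peaks to 4 of 8 (Chd1, Chd2, Chd3 and Chd9). Among all measured genes 36.0% had an SSRP1 peak and 18.6% a SUPT16 peak, and among the 5985 with a gene body of 26.2 to 226 kb, the range of the members, 38.5% and 19.6% did. Chd7 and Chd8 had neither. The only peak of Chd6 was an SSRP1 peak 57599 bp upstream of the gene. Within 1000 bp of an annotated start, SSRP1 peaks were found for Chd2, Chd4 and Chd9 and SUPT16 peaks for Chd1, Chd3 and Chd9. The SUPT16 peak of Chd9 among these lay 80.56 kb past the first start, near a start inside the gene. The share of all genes with a peak this near a start was not computed. The lists give no peak height, so strength could not be compared.

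Chd9 (chr8:90828302-91054516) carried most of the peaks assigned to the 8 genes. It was assigned 20 of the 28 SSRP1 peaks of the 8 genes, a number exceeded by 8 genes in the genome, where the median gene with a peak had 1. Of these 14 overlapped its gene body of 226 kb, a count exceeded by 3 of 14964 measured genes, and they had a density of 6.19 per 100 kb, which 5 of the 1764 genes of at least 100 kb exceeded. The longest, of 1764 bp (chr8:90907741-90909504), lay inside the gene over a start of predicted transcripts and enclosed a SUPT16 peak of 560 bp, and another of 1372 bp covered the first start. Chromosome 8 had the highest SSRP1 peak density of all chromosomes, 8.89 per Mb against 0.338 to 6.76 elsewhere, and the part of that in the Chd9 count was not tested. The 250 bases before its first RefSeq start (chr8:90828052-90828301, plus strand, CpG in capitals) lie within the 1372 bp peak.

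Chd9 upstream: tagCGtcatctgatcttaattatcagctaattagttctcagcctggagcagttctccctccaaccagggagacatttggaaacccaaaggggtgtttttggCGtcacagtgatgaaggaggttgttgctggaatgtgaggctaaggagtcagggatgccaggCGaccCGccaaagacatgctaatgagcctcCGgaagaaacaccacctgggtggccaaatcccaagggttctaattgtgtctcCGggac

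This stretch holds 6 CpG, fewer than the median of 11 and at the 28.1 percentile, and none of the 4 motifs searched. The same window varied widely in the family. Chd7 held 49 CpG and Chd1 held 40, at the 99.8 and 98.5 percentiles, while the window of Chd2 held 0. Chd6 alone held the octamer letters ATGCAAAT on either strand, which 1.48% of windows do, together with 3 copies of CCAAT, present in 35.6%. The letters AAGGTCA, bound by oestrogen-related receptors such as Esrrb and present in 3.28%, was in none of the 8. The 2 windows richest in CpG belong to genes without an SSRP1 peak.

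**Figure D5:**
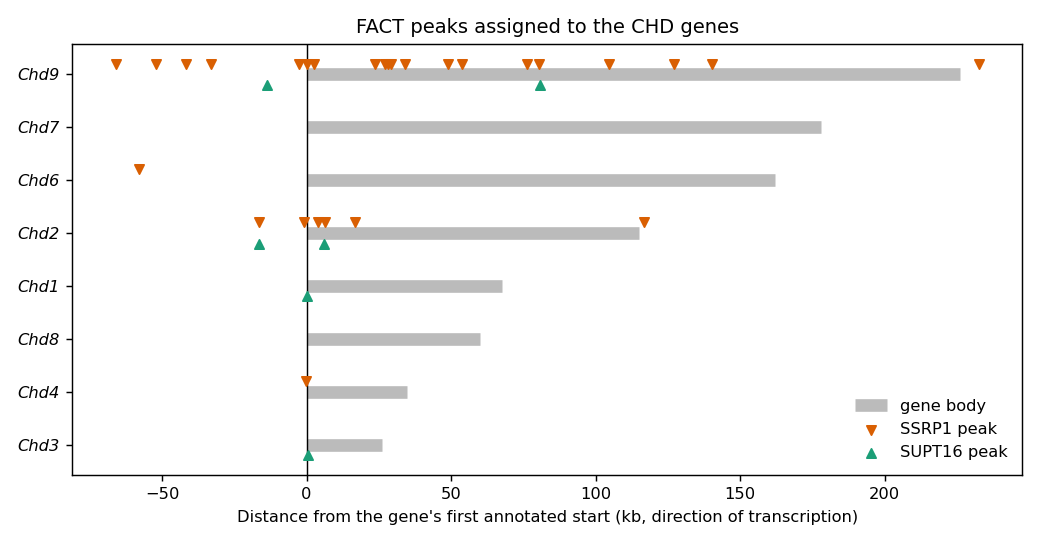
Positions of SSRP1 peaks (downward triangles) and SUPT16 peaks (upward triangles) against the first annotated start of each CHD gene, in kb in the direction of transcription; grey bars are gene bodies. Chd9 carries 20 SSRP1 peaks and Chd2 carries 6, while Chd7 and Chd8 carry none.

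RNA bound to chromatin, a fraction enriched for nascent transcripts, was counted in 2 libraries of unperturbed mESCs. Counts on protein-coding genes were few (191237 and 317468, or 5.56% and 9.35% of all counts), and intervals here are exact Poisson 95% intervals that cover counting error only. Chd4 again led with 178 (153 to 206) and 227 (198 to 259) counts, or 145 and 111 CPM per kb of exon with CPM taken over protein-coding counts, at the 99.0 and 98.3 percentiles of protein-coding genes. Chd3 was lowest with 16 (9.15 to 26) and 11 (5.49 to 19.7) counts, followed by Chd7 with 27 (17.8 to 39.3) in both libraries. Chd1 (64 and 139), Chd2 (74 and 81), Chd8 (62 and 87), Chd9 (91 and 169) and Chd6 (38 and 95) lay between, at 18.8 to 55.3 CPM per kb of exon, in an order that differed between the libraries. Per kb of gene body, which suits unspliced RNA, Chd4 was again first at 26.9 and 20.7 CPM and Chd7 was last at 0.793 and 0.478, while Chd3, a gene of 26.2 kb, moved up to 3.19 and 1.32. Chd4 thus ranked first in both kinds of RNA, and the bottom place depended on the length used.

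Partners of the CHD proteins and genes of other remodeller families were counted together, in 7 lists holding 93 measured genes. The lists include Chd5 and Ssrp1, the gene targeted by the knockdown, and both are among the 5 called lower. Of the 93 genes 16 were called, 11 higher and 5 lower, where 28.6% of all genes were called. The median log2 fold change of the 93 was 0.32. That median was -0.02 under quantile normalisation and -0.11 under plain CPM. Quantile values called 4 higher and 7 lower (9.54% and 10.6% of all genes), and plain CPM called 2 and 7 (2.23% and 30.5%). Spike-ins called 66 and 2 (48.1% and 7.03%), and the length curve gave 20 and 2 (12.0% and 16.3%). Among 15 NuRD and ChAHP partners of CHD3 and CHD4, 2 were called higher and none lower. These were Cbx1 (42.0 ± 3.14 to 120 ± 5.15, log2 fold change 1.51) and Cbx3 (72.9 ± 3.69 to 197 ± 13.1, 1.43), which encode heterochromatin proteins that read methylated lysine 9 of histone H3. At an adjusted p below 0.01 alone 9 of the 15 were higher and 1 was lower, where 35.4% and 37.3% of all genes were. The lower one was Adnp, the DNA-binding subunit of ChAHP (95.8 ± 7.18 to 69.4 ± 2.25, -0.46), which was at 0.56 with spike-ins and 0.01 with the length curve taken off. Among 12 elongation and FACT partners of CHD1 only Ssrp1, the targeted gene, was called. Among 9 MLL, CTCF and β-catenin partners of CHD7 and CHD8, Dpy30 (48.5 ± 4.51 to 114 ± 5.79, 1.23), a core subunit of the histone H3 lysine 4 methyltransferases, and the pluripotency factor Sox2 (151 ± 8.52 to 367 ± 10.9, 1.28) rose. Both were under the fold threshold with quantile values (0.93 and 0.75) and with plain CPM (0.81 and 0.85).

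The other remodeller families held calls in both directions, beside 8.07% of all genes called higher and 20.6% called lower. Of 18 SWI/SNF genes 3 rose, the largest rises being Phf10 (23.7 ± 2.34 to 64.9 ± 4.07, log2 fold change 1.44) and Actl6a (123 ± 2.81 to 284 ± 8.09, 1.20), both known from progenitor forms of the complex. The 3 that fell were led by the ATPase Smarca2 (22.4 ± 2.55 to 4.41 ± 0.898, -2.24) and the DNA-binding subunit Arid1b (44.1 ± 2.35 to 18 ± 1.35, -1.27). Arid1b, with 11325 bases of exon, was at -0.34 once the length curve was taken off and at -0.27 with spike-ins. Of 11 ISWI genes the ATPase Smarca1 rose (8.90 ± 1.40 to 22.1 ± 2.65, 1.27). Of 16 INO80 and SRCAP/TIP60 genes the ATPase Ino80 (1.01) and the helicase Ruvbl1 (74.3 ± 0.510 to 166 ± 3.79, 1.15) rose, and Ino80 dropped to 0.95 and out of the called set without control replicate 3. Of 12 other SNF2 ATPases Hltf, which remodels stalled replication forks, rose (62.9 ± 2.31 to 149 ± 7.72, 1.24) and Chd5 fell. With quantile and with plain CPM values Actl6a (0.72 and 0.77), Ruvbl1 (0.78 and 0.73), Ino80 (0.62 and 0.58) and Hltf (0.88 and 0.81) were under the fold threshold, as was Smarca1 with plain CPM (0.86). Chd5 is the nearest relative of Chd3 and Chd4, is typical of neurons and was not among the 8 genes. Its library-size values were 36.8, 44.1, 44.7 and 32.8 in control and 15.2, 13.3, 14.5 and 18.2 in KD, a log2 fold change of -1.34 (SE 0.11, adjusted p = 1.02e-11, limma). With spike-ins it was -0.34 and with the length curve taken off -0.51, so it passed the fold threshold in neither.

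For each CHD gene the closest profile among all genes was sought by Euclidean distance over the 8 libraries, after each gene's log2 values were centred on its own mean. Chd1 lay nearest to Hnrnpr (distance 0.0827), Chd4 to Zfp740 (0.098), Chd8 to Rbm17 (0.079) and Chd9 to Ube3c (0.118). Chd2 lay nearest to Neo1 (0.13), Chd7 to Zfp202 (0.162) and Chd3 to Matn2 (0.159), which encodes a matrix protein. Chd6 lay nearest to Gm4340 (0.0744), a multicopy gene whose reads may be shared among copies, so its value is uncertain. Among the 8 genes the closest pair was Chd1 and Chd4 (0.212), but many genes outside the family lay closer to each. Chd4 ranked 310 among the profiles nearest to Chd1, and Chd1 ranked 149 among those nearest to Chd4. Chd3 was farthest from any other member (0.65 from Chd7, at rank 1258).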

How the data were processed

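RNA-seq reads had been aligned to mm10 with STAR (2.5.1b per the labels, 2.4.1b in the study's methods) and counted per gene with featureCounts by the authors, and genes above 1 CPM were kept. The deposited signal per library is a gene count divided by a library factor, in a spike-in and a library-size version. Low values were whole multiples of the value of 1 read (100% within 0.1), so counts were recovered. Values were tested with limma 3.58.1 (trend, Benjamini-Hochberg over 15384 genes) on log2(library-size value + 0.5), and a fold change on that scale understates the change of low genes. edgeR 4.0.16, DESeq2 1.42.0, 6 other scalings, a replicate block and leaving out each library were alternatives, and the limma, edgeR and DESeq2 fits were checked on simulated data. Ratios were tested by exact permutation in scipy 1.17.1. Chromatin RNA counts were deposited raw, with aligner STAR 2.4.1b per the labels. Peak lists hold positions assigned to genes by the authors, with starts counted from 0, which are printed counted from 1. Peaks count as overlapping from 1 bp. Sequences and gene models are from RefSeq (GRCm38.p6, the build of mm10), and of the 8 genes 4 have an entry in the RefSeq promoter table, so windows were read from the genome. The deposited tables of the authors' own comparisons hold fold changes, p-values and exon usage and were not used, except for the mean log2 expression that the authors deposited. The text names all 8 genes, Ssrp1 and Supt16, up to 2 called genes with the largest rise and fall in each of the 7 lists, and the nearest profile of each gene. Adnp, 1810026B05Rik and the marker genes named were chosen after their values were seen. The members and lists were chosen with earlier results of these data known. The study calls the 4 libraries of a group biological replicates, and pairs within a group differed beyond sampling noise (chi-square per degree of freedom 1.88 to 6.61).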

Additional observations from a re-analysis of the deposited data

How the results depend on the processing

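Of the 8 CHD genes 0 were called under every alternative except 2 with spike-in scaling, 3 with spike-in scaling without KD replicate 1, 2 with plain CPM and 8 with an adjusted p alone. Of all genes 55.1%, 61.4%, 32.8% and 72.8% were called under these settings, in that order. Genes called in the 7 lists of partners and other remodellers went from 16 to 68, 75, 9 and 72 under the same settings. Their number was 11 with quantile values and 22 with the length curve. Spike-in scaling without KD replicate 1 and plain CPM were chosen after seeing the data. Spike-in scaling gave positive log2 fold changes for Chd2 (0.55), Chd3 (0.19), Chd6 (0.45), Chd7 (0.53), Chd8 (0.74) and Chd9 (0.84), and without KD replicate 1 they were 0.77, 0.37, 0.67, 0.73, 0.94 and 1.05. The length curve gave positive values for Chd2 (0.33), Chd6 (0.32), Chd7 (0.34), Chd8 (0.46) and Chd9 (0.77). Chd1 and Chd4 were negative with quantile normalisation (-0.28 and -0.40) and with plain CPM (-0.21 and -0.14). Of 176 alternative values for the 8 genes, 145 kept their sign and an adjusted p below 0.01, 10 kept their sign with an adjusted p above it and 21 changed sign, and 7 of the 176 passed both thresholds for a call, 6 of them with the sign kept. Of 374 alternative values for 17 other named genes, 340 kept sign and call, 3 gained the call and 25 lost it, 21 of these by size alone with an adjusted p still below 0.01. The other 6 changed sign, being 1810026B05Rik and Adnp with spike-ins (0.74 and 0.56), with spike-ins without KD replicate 1 (0.93 and 0.78) and with the length curve (0.24 and 0.01). The cause of these differences was not tested.

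The Chd3 to Chd4 ratio shifted by -1.27 to -1.0 and the Chd1 to Chd2 ratio by 0.63 to 0.75 when a library was left out (exact permutation p = 0.0571 in each, the smallest 3 against 4 can give). With the replicate block, a sign-flip permutation of pairs by number, the shifts were -1.11 and 0.69 with p = 0.125, also the smallest possible. Quantile values, added for the ratios after seeing the data, gave -0.51 (exact permutation p = 0.114) for Chd3 to Chd4 and 0.55 for Chd1 to Chd2. In limma the ratios had adjusted p = 1.07e-04 and 5.82e-05. Same-numbered control and KD libraries did not deviate together (correlations 0.02, -0.02, -0.06 and -0.02). That cannot settle whether the numbers pair them, which no label states. The replicate block in limma called 0 CHD genes and 16 partner genes, as without it. With peaks of at least 500 bp, SSRP1 peaks remained at 2 of 8 genes and SUPT16 peaks at 1. Per kb of gene body, 2 of 8 genes kept their rank in each chromatin RNA library. The longest transcript as length kept 6 of 8 ranks in each group. Depth limits Chd3 and Chd7 in chromatin RNA, where both rest on at most 27 counts.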

Other observations

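The authors' mean log2 expression over control and KD libraries, with log2 of the exon length in kb subtracted, put Chd4 first at 6.56 and Chd7 last at 2.14, with Chd3 next to last at 2.26. The study also sequenced 3 libraries of early neural progenitors. These cells came from embryoid bodies treated with retinoic acid and were then cultured without leukaemia inhibitory factor. In the authors' separately scaled table of mESCs and these progenitors, the same mean was 6.75 for Chd4 and 2.65 for Chd7. Chd3, at 3.49, stood above Chd6 (3.33) and Chd9 (3.14) there. These are pooled means with no spread, the libraries that entered the control and KD mean are not settled by the labels, and levels were not compared between the tables.

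The noncoding gene 1810026B05Rik (chr7:73539798-73558395), which starts at the shared FACT peaks upstream of Chd2, had 16 and 36 chromatin RNA counts, or 16.3 and 22 CPM of protein-coding counts per kb of exon. Chd2 had 42.7 and 28.1 on the same scale. Chd5 was measured in chromatin RNA at 10 and 12 counts, and 5.51 and 3.98 on that scale. Per kb of exon this was below all 8 genes in both libraries, whereas per kb of gene body Chd5 (1.01 and 0.733) lay above Chd7 (0.793 and 0.478), and its counts overlap those of Chd3 within their intervals.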
